A study of Homo sapiens with 5 samples.

Results

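The CDK inhibitor genes CDKN2A, CDKN2B, CDKN1A and CDKN1B and the gene MTAP were examined in 3 windows of the hg19 genome, whose peaks were taken by position and not by any measured value. CDKN2A, CDKN2B and MTAP lie together at 9p21, on chromosome 9 from 21500000 to 22300000. CDKN1A lies on chromosome 6 from 36620000 to 36670000, and CDKN1B on chromosome 12 from 12850000 to 12890000. A peak was a member when it shared at least 1 bp with a window. The windows held 42 of the 51392 peaks deposited for chromosomes 1 to 22 and X, with 10 of 13181 in the H3K4me3 list, 28 of 36736 in the RUNX1 list and 4 of 1475 in the SMA4 list.

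The peaks come from CUT&RUN of MOLT-4, an established line of human T cell leukaemia, for which the labels name no treatment other than the assay. In CUT&RUN a nuclease fused to protein A/G is brought to a chromatin protein by an antibody, and the fragments it cuts out are sequenced. The antibodies were against H3K4me3, a histone modification found at promoters that are active or poised, RUNX1, a DNA-binding regulator of blood cell genes, and a target given only as SMA4. Each had 1 library, so no value below has a replicate check and no test was made. The 2 IgG controls of the series were not analysed here, so no peak is set beside an IgG level. The lists give positions without read counts or scores, so the depth behind a peak is unknown and peak width is the only measure of its size. SMA4 peaks were called in a different batch and with a different pipeline, so antibody, batch and pipeline cannot be told apart.

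CDK inhibitors bind cyclin-dependent kinases or their cyclin complexes and hold cells before DNA replication. CDKN2A encodes the CDK4 and CDK6 inhibitor INK4A and, from another first exon and reading frame, the protein ARF. CDKN2B encodes the related inhibitor INK4B, and its antisense RNA CDKN2B-AS1 starts beside the ARF promoter. MTAP encodes an enzyme that salvages methionine and adenine from methylthioadenosine and is often lost together with CDKN2A. CDKN1A and CDKN1B encode inhibitors of the CIP/KIP family. Loss of 9p21 is among the most frequent lesions of T cell acute lymphoblastic leukaemia. In the RefSeq order on GRCh38.p14, MTAP is followed by CDKN2A-AS1, CDKN2A, CDKN2B-AS1, CDKN2B and DMRTA1. GPR19 precedes CDKN1B and APOLD1 follows it.

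The CDKN1A window held no H3K4me3 peak and the CDKN1B window 8, so the promoters of these genes are shown first. These are the 120 bases before the annotated RefSeq start in GRCh38.p14, plus strand, with every CpG dinucleotide in capitals, since CpG-dense promoters commonly carry the mark. The CDKN1A stretch is chr6:36678594-36678713 and the CDKN1B stretch chr12:12717248-12717367.
CDKN1A: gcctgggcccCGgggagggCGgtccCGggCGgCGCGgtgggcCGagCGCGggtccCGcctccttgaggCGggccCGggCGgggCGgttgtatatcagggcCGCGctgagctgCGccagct
CDKN1B: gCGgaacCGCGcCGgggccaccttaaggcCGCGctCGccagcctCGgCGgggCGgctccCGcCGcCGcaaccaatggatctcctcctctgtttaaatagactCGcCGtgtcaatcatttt
The CDKN1A stretch has 17 CpG dinucleotides and the CDKN1B stretch 15. Over the full 250 bases before the start, both promoters have 27, more than 82.3% of the 35114 RefSeq promoters of that length, whose median is 11. The promoters were thus equal in CpG number but not in base content, with 76.4% G and C at CDKN1A and 64.4% at CDKN1B. The ratio of observed CpG to that expected from base content was 0.758 and 1.04. The counts of 0 and 8 H3K4me3 peaks are for whole windows and not for these promoters. Whether CpG content bears on the mark here was not tested.

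CDKN2A is shown with both of its RefSeq starts, because a single H3K4me3 peak was called in the CDKN2A part of 9p21. The sequences are the 250 bases before each start on the minus strand of GRCh38.p14, chr9:21995325-21995574 for the upstream start, that of ARF, and chr9:21974858-21975107 for the downstream start, that of INK4A. Capitals mark TGTGGT or TGTGGC on either strand, the forms searched here as a runt motif. Other forms of the motif were not searched.
CDKN2A upstream start: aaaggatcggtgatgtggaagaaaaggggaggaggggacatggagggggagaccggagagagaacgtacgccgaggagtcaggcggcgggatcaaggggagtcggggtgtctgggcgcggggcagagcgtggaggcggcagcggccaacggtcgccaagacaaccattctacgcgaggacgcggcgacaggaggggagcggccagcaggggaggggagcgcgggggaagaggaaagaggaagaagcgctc
CDKN2A downstream start: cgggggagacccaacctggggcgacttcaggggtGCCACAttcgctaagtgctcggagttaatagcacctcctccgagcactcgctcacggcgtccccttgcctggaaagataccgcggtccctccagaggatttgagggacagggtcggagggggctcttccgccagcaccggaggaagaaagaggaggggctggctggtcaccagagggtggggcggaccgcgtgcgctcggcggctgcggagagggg
The downstream promoter held the one match among the 6 member promoters, as GCCACA, the reverse complement of TGTGGC, beginning 216 bases before the start. Among all RefSeq promoters, 24% had a match. CpG counts were 24 and 20 for the CDKN2A promoters, 18 for CDKN2B and 11 for MTAP. A match describes the letters and is no evidence of binding.

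The other genes of the pathway were 13 CDK inhibitors, kinases, cyclins and RB pathway genes, of which 9 had an entry in the promoter table, with 14 promoters. Of these 14, 3 held a match to TGTGGT or TGTGGC, beside 24% of all RefSeq promoters. They were those of CDKN2D, an INK4 inhibitor, and of E2F1, a transcription factor released by RB1, and 1 of the 3 listed for CCND3, a D-type cyclin. TGTGGT alone was found in 0 of the 14, beside 11% of all promoters. With an hg19 annotation not used here, no peaks were assigned to these genes.

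At 9p21 the mark was present at 2 places and RUNX1 at 17. The first H3K4me3 peak, at 21802147 to 21804285, was 2139 bp wide, and the second, at 21994042 to 21996091, was 2050 bp wide. They were wider than 90.5% and 89.0% of the H3K4me3 list, whose median was 938 bp. By the hg19 gene map as generally known, which was not an input here, the first lies at the start of MTAP and the second at the neighbouring starts of ARF and CDKN2B-AS1. Every later placement of a peak or span at a gene rests on that map as well. No H3K4me3 peak was called between them, where the same map places the INK4A start, or from the second to the end of the window, where it places CDKN2B. Windows of 800 kb tiled over the genome had a median of 2 H3K4me3 peaks, and 52% had 2 or more. Among the 3044 tiles with a peak of any list, the median was 3 and 64.5% had 2 or more. In its number of H3K4me3 peaks the 9p21 window was thus at the median of all tiles and below that of tiles with a peak.

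Each of these H3K4me3 peaks coincided with a RUNX1 peak. At the first, a RUNX1 peak from 21801897 to 21803601 (1705 bp) shared 1455 bp with the mark. At the second, a RUNX1 peak from 21993998 to 21995479 (1482 bp) shared 1438 bp. These were the widest RUNX1 peaks of the 9p21 window, wider than 93.2% and 89.6% of the RUNX1 list. The overlap itself was common, since 88.1% of all H3K4me3 peaks met RUNX1.

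The other 15 RUNX1 peaks at 9p21 lay outside the mark, so 11.8% of the 17 were at H3K4me3 (95% Wilson interval 3.29 to 34.3%) against 32.2% of the whole list. Such intervals allow for counting error alone, and peaks close to each other are not independent. Upstream of MTAP, 5 RUNX1 peaks lay between 21559631 and 21761442, with widths of 311, 942, 916, 422 and 229 bp. A peak of 433 bp at 21813838 to 21814270 followed the MTAP peak after 10.2 kb. Beyond the ARF peak, 9 RUNX1 peaks ran from 22035491 to 22239447. The widest of them, at 22079432 to 22080884, was 1453 bp wide and lay 83340 bases from the nearest H3K4me3 peak. The last pair, 865 and 750 bp wide, were separated by 605 bases at the far end of the window. RUNX1 peaks were present on both sides of the INK4 genes, at 21.2 peaks per Mb against 12.1 per Mb for the whole list, and 21.9% of 800 kb tiles held at least 17 (27.2% of tiles with a peak of any list).

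SMA4 had 2 peaks at 9p21, neither at H3K4me3. The first, at 21578894 to 21579187 (294 bp), lay wholly inside the 916 bp RUNX1 peak upstream of MTAP. The second, at 22073435 to 22073659 (225 bp), lay 1500 bases before the RUNX1 peak at 22075160 and overlapped none. At least 2 SMA4 peaks were found in 8.44% of 800 kb tiles. The nearest SMA4 peak to the ARF H3K4me3 peak was 77343 bases away.

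**Figure D1:**
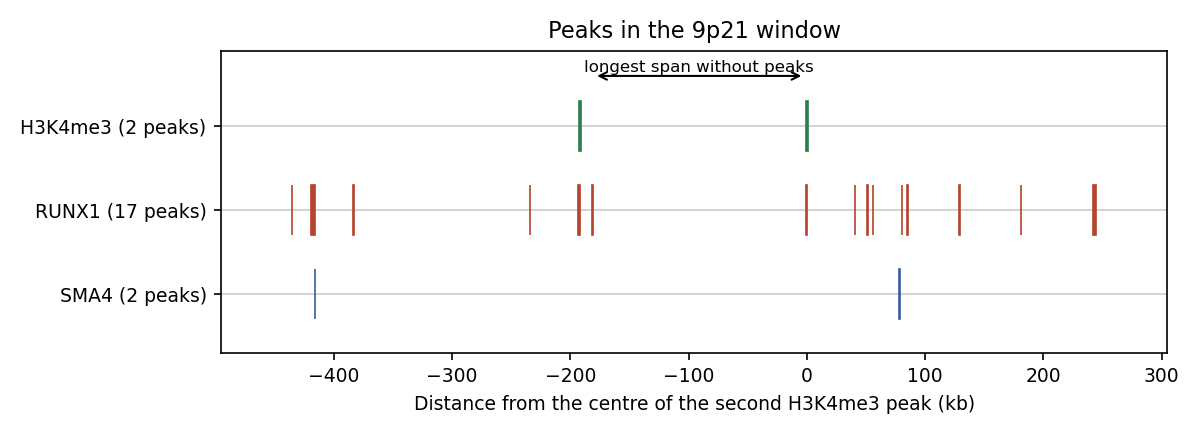
Peaks of the H3K4me3, RUNX1 and SMA4 lists in the 9p21 window, plotted by distance in kb from the centre of the second H3K4me3 peak; each bar is 1 peak, drawn at a minimum line width, and the arrow marks the longest span without peaks of any list. RUNX1 bars stand on both sides of the 2 H3K4me3 bars, and the 180 kb span lies between them.

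The spans without peaks were measured to see whether any at 9p21 had the form of a deletion, a long empty stretch between flanking peaks. No span free of peaks from all lists covered MTAP, CDKN2A and CDKN2B together, because peaks were called at the starts of MTAP and ARF. The longest span inside the window free of peaks from all lists ran from 21814271 to 21993997 (180 kb), from the RUNX1 peak after the MTAP start to the RUNX1 peak at ARF. By the same general gene map it holds most of MTAP and most of CDKN2A, with the INK4A start but not the ARF start. It ranked 121 of 1500 spans on chromosome 9, and 8.35% of all 37545 spans were at least as long, beside a median of 18.4 kb. The span after the ARF peak, from 21996092 to 22035490 (39.4 kb), which holds CDKN2B, was exceeded or equalled by 33.9% of spans. The SMA4 list alone was empty over 494 kb between its 2 peaks in the window, and 54.1% of its spans were as long. By the general gene map that SMA4 span does hold MTAP, CDKN2A and CDKN2B together. For H3K4me3 alone the longest span inside the window was 190 kb, and 22.2% of its spans were as long.

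The flanks of the 180 kb span give its scale. The 1 Mb before it held 23 RUNX1, 3 H3K4me3 and 3 SMA4 peaks, and the 1 Mb after it 10 RUNX1, 1 H3K4me3 and 1 SMA4 peaks. A peak list holds no copy number, so whether DNA is missing from this span in MOLT-4 cells was not tested.

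A far longer span without RUNX1 began past CDKN2B, near the end of the 9p21 window with the higher coordinates. After the last RUNX1 peak of the window, no RUNX1 peak was called from 22239448 to 26578325, a distance of 4.34 Mb. It ranked 3 of 1469 RUNX1 spans on chromosome 9 and 24 of 36713 in all, so that 0.0654% of them were as long. The H3K4me3 list had 1 peak in this span, at 23809559 to 23809737, which at 179 bp was of the minimum width of its list. SMA4 had none until 31347074, which made its span 9.27 Mb, and 3.03% of SMA4 spans were as long. For H3K4me3, the span from the ARF peak was 1.81 Mb, and 2.26% of its spans were as long. Of the 23 longer RUNX1 spans, 10 held no H3K4me3 peak, 10 held 1 and 3 held more. No span was left out for crossing a centromere or sequence to which reads cannot be mapped. The ranks, shares and counts of spans may therefore include such stretches. Over all lists together, the span past the 9p21 window ended at its lone H3K4me3 peak and was 1.57 Mb long, and 0.549% of spans were as long. Whether DNA is missing there was not tested.

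**Figure D2:**
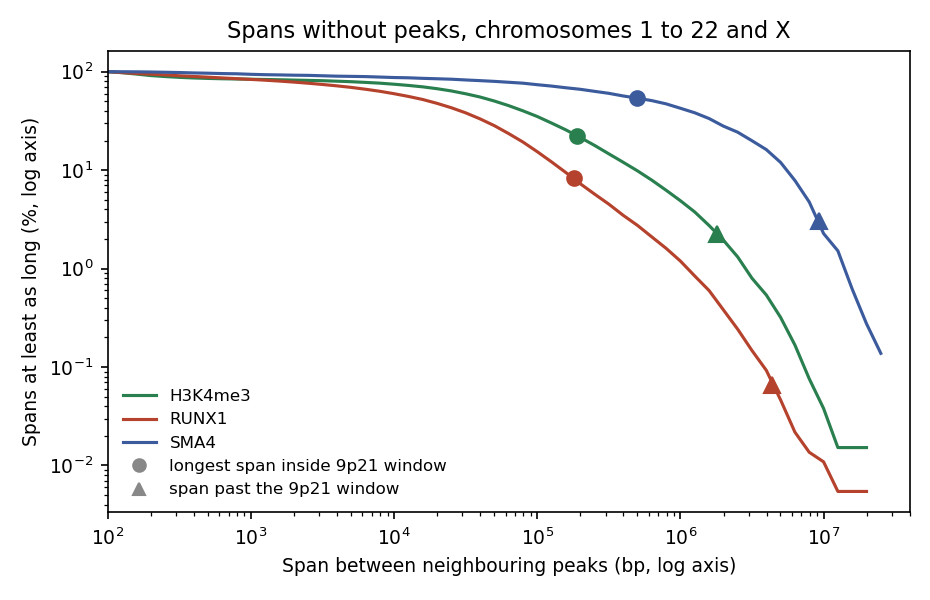
Length of the spans between neighbouring peaks of 1 list on the x axis (bp, log) against the percent of that list's spans at least as long on the y axis (log), with circles for the longest span inside the 9p21 window and triangles for the span running past its end. The RUNX1 triangle, at 4.34 Mb, lies near the end of its curve at 0.0654%, whereas the RUNX1 circle lies at 8.25%.

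CDKN1A carried RUNX1 without the mark. Its window held 4 RUNX1 peaks, 0 H3K4me3 peaks and 0 SMA4 peaks. The RUNX1 peaks lay at 36630293 to 36630886 (594 bp), 36646561 to 36646856 (296 bp), 36648284 to 36648521 (238 bp) and 36650378 to 36650918 (541 bp). All 4 were narrower than the list's median of 645 bp, with the narrowest exceeding 7.64% of the list and the widest 45.5%. By the hg19 map as generally known, the peak of 296 bp lies just inside the main start of CDKN1A, those of 238 and 541 bp farther into the gene, and that of 594 bp upstream of it. The nearest H3K4me3 peaks outside the window were 55.3 kb before it, at 36561201 to 36564694 (3494 bp), and 172 kb after it, at 36841742 to 36843272 (1531 bp).

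Of 50 kb tiles over the genome, 14.5% had 1 or more H3K4me3 peaks and 4.1% had at least 4 RUNX1 peaks. Of the 18481 tiles that held a peak of any list, a base chosen after seeing the data, 52.4% had no H3K4me3 peak and 13.5% reached 4 RUNX1 peaks. The window was placed on a gene and the tiles were not. Of the 2489 tiles with 4 or more RUNX1 peaks, 861 (34.6%) held no H3K4me3 peak, so the combination seen at CDKN1A was not rare among RUNX1-rich windows. SMA4 peaks were found in 2.08% of 50 kb tiles, so a window without one was the usual case. A gene without a called peak may still have the mark below the threshold of the list, which is not given in the sources used here.

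CDKN1B had the densest peaks of the 3 windows in every list. RUNX1 stood at 175.0 peaks per Mb, against 80.0 at CDKN1A and 21.2 at 9p21. These rates come from windows of unlike length, 40 kb at CDKN1B, 50 kb at CDKN1A and 800 kb at 9p21. A short window set closely on a gene and a long one are not on an equal footing, so the order is a description only. Its 40 kb held 8 H3K4me3, 7 RUNX1 and 2 SMA4 peaks, with 22.2% of the window in H3K4me3 peaks and 27.1% in RUNX1 peaks. Tiles of 40 kb reached 8 H3K4me3 peaks in 0.00923% of cases (7 of 75800), 7 RUNX1 peaks in 0.485% and 2 SMA4 peaks in 0.197%. Among the 20241 tiles with a peak of any list, the shares were 0.0346%, 1.82% and 0.736%. This window too was placed on a gene, so these shares describe its density and do not compare it with other promoters. The number of H3K4me3 peaks also depends on how the caller splits a marked domain: the gaps between neighbouring H3K4me3 peaks here were as short as 131 and 270 bases. With peaks under the list's median width left out, 2 H3K4me3 and 4 RUNX1 peaks remained.

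The widest H3K4me3 peak of the windows lay at 12869191 to 12872747, 3557 bp wide and 125th of 13181 by width. By the hg19 map as generally known it covers the start of CDKN1B. A second wide peak, at 12876915 to 12880072 (3158 bp, 220th by width), lies at the start of the neighbouring gene APOLD1. Between them were H3K4me3 peaks of 927 bp at 12875203 to 12876129 and of 384 bp at 12876400 to 12876783. Before the CDKN1B peak stood narrow ones of 181 and 318 bp. The outermost, at 12858899 to 12859078 and 12889576 to 12889770, were 180 and 195 bp wide. The mark thus formed 2 wide blocks with small peaks around them.

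A single RUNX1 peak bridged the CDKN1B start. It ran from 12867007 to 12871878 (4872 bp), ranked 38 of 36736 by width, met 3 H3K4me3 peaks and shared 3187 bp with them. The SMA4 peak at 12868523 to 12868757 (235 bp) lay inside it. That SMA4 peak fell in the 1191 bases between the H3K4me3 peaks of 318 and 3557 bp, and was 433 bases from the wider one. RUNX1 and SMA4 were therefore called together in a gap of the mark beside its widest peak in the window.

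The second SMA4 peak of CDKN1B, at 12875926 to 12876067 (142 bp), lay inside both the 927 bp H3K4me3 peak and a RUNX1 peak of 908 bp at 12875224 to 12876131. It was the only one of the 4 SMA4 peaks in the windows to overlap the mark. A RUNX1 peak at 12876689 to 12879540 (2852 bp) covered most of the APOLD1 block, and another of 221 bp, the minimum width of the list, followed at 12879711. The RUNX1 peak of 600 bp at 12857393 to 12857992 was the one RUNX1 peak of this window outside the mark, at a distance of 906 bases from it.

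**Figure D3:**
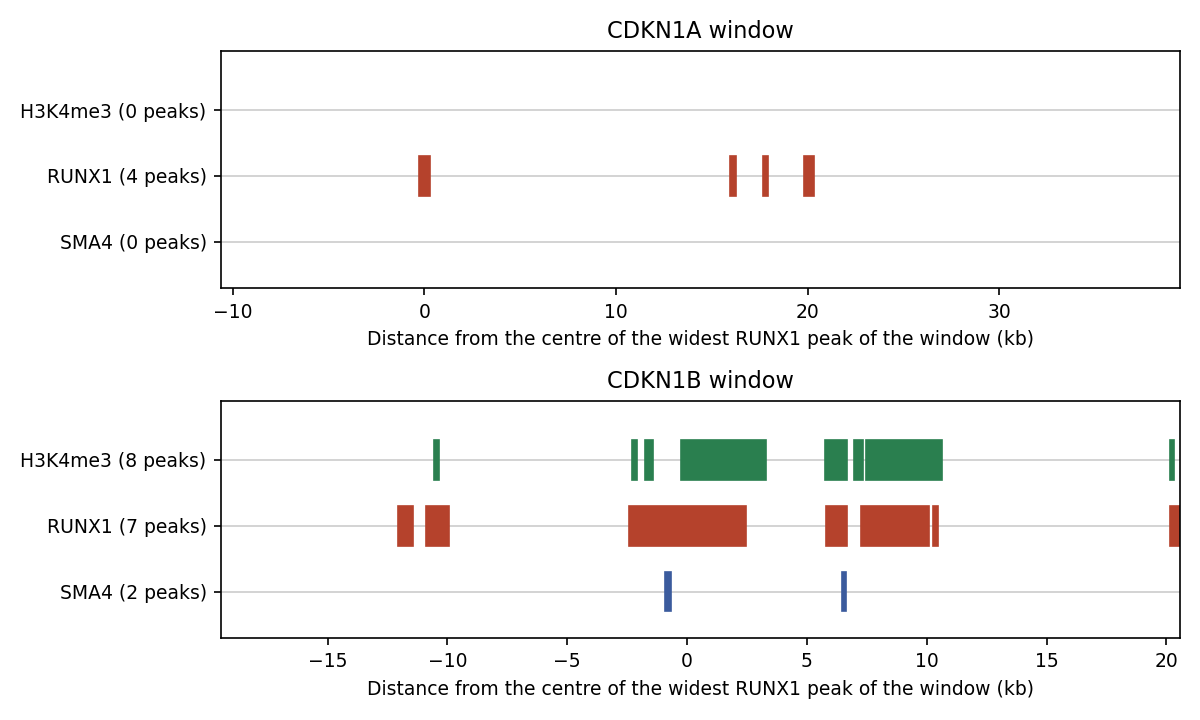
Peaks in the CDKN1A window (top) and the CDKN1B window (bottom), by distance in kb from the centre of the widest RUNX1 peak of each window; each bar is 1 peak to scale. CDKN1A shows 4 RUNX1 bars and no bar of the other lists, and CDKN1B shows 8 H3K4me3, 7 RUNX1 and 2 SMA4 bars.

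Across the windows, all 10 H3K4me3 peaks overlapped RUNX1 (lower 95% Wilson bound 72.2%) beside 88.1% of the list. Of these 10, 8 lay in the CDKN1B window, and 3 of those met the same RUNX1 peak, so they are not independent. The bounds and intervals given here treat peaks as independent and describe no spread between libraries. Conversely, the mark was met by 8 of 28 RUNX1 peaks (28.6%, interval 15.3 to 47.1%) beside 32.2% of the list. That total joined unlike windows: 2 of 17 RUNX1 peaks at 9p21, 0 of 4 at CDKN1A and 6 of 7 at CDKN1B were at the mark. SMA4 met RUNX1 in 3 of 4 peaks beside 65.9% of its list, and H3K4me3 in 1 of 4 beside 21.8%. Of the 28 RUNX1 peaks, 3 overlapped SMA4, beside 2.56% of the list, and of the 10 H3K4me3 peaks 1 did, beside 2.39%. The 3 of 28 RUNX1 peaks were 10.7% (interval 3.71 to 27.2%). With only 4 SMA4 peaks, the intervals of the SMA4 shares are wider, 30.1 to 95.4% for RUNX1 and 4.56 to 69.9% for H3K4me3.

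H3K4me3 widths of the members ran from 180 to 3557 bp, with 4 of 10 at or above the list's median of 938 bp. RUNX1 widths ran from 221 to 4872 bp, with 12 of 28 at or above 645 bp. SMA4 widths were 294, 225, 235 and 142 bp beside a median of 219 bp. The 2 widest RUNX1 peaks at 9p21 and the 2 widest at CDKN1B met H3K4me3, but at CDKN1B 6 of 7 did. All 4 at CDKN1A were narrower than the median, and none could meet the mark, as their window held no H3K4me3 peak. Width and the mark did not always go together. The next widest at 9p21, of 1453 bp, lay outside the mark, and CDKN1B peaks of 221 and 644 bp met it.

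**Figure D4:**
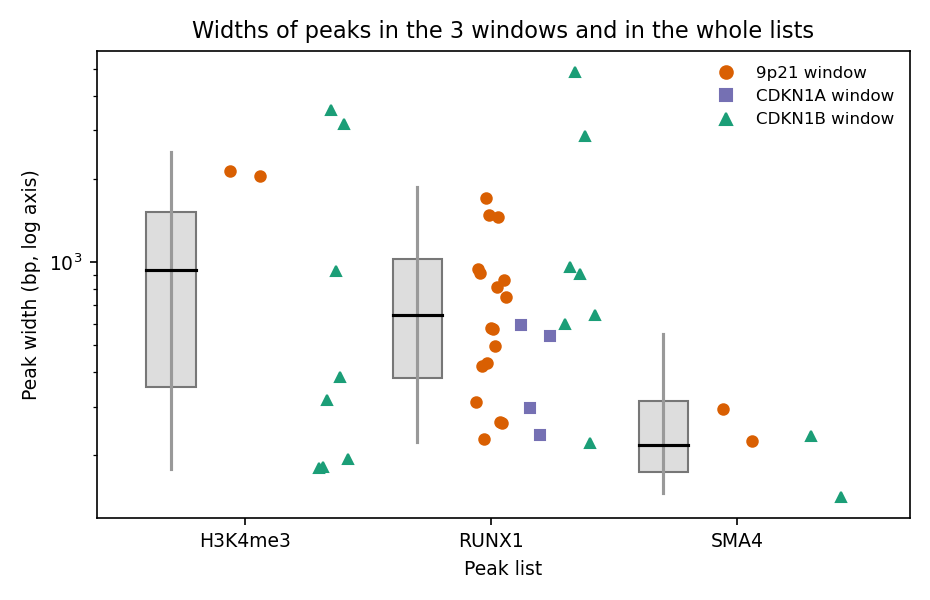
Width in bp (log axis) of each member peak by list and window, beside the whole list drawn as median, quartile box and a line from the 5th to the 95th percentile. The CDKN1B triangles reach 3557 bp in H3K4me3 and 4872 bp in RUNX1, and the 4 CDKN1A squares lie below the RUNX1 median of 645 bp.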

How the data were processed

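Peaks of 3 CUT&RUN libraries of MOLT-4 cells were used. Positions are hg19, per the submitters' processing notes, which name MACS2 and SEACR without roles. The authors deposited chromosome, start, end and a peak name, with no score. Per the file headers, H3K4me3 and RUNX1 peaks came from MACS2 (batch 2) and SMA4 peaks from cutruntools at a q threshold of 0.01 (batch 3). The aligner and the MACS2 threshold: not given in the sources used here.

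Starts were made 1-based. Counts per window were set beside non-overlapping tiles of equal length, with the highest peak end as chromosome length. Spans are the bases between neighbouring merged peaks, with none left out for centromeres or unmappable sequence. Overlap needed 1 bp. Code (Python 3.11.15, pandas 2.3.3) was tested on simulated peaks. With 1 library per antibody no test was made. All peaks of the windows are described, and pathway genes come from a list. The genes, their windows and the lists were chosen with earlier results of these data known, though the rule itself uses positions alone. Promoters are RefSeq, GRCh38.p14, whose coordinates were not compared with the peaks. All 5 members had an entry. Alternatives were other overlap rules, wider windows, merged peaks, width filters, leaving out a list, tiles with a peak of any list, all sequences, width ranks within the chromosome and TGTGGT alone.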

Additional observations from a re-analysis of the deposited data

How the results depend on the processing

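Of 76 alternative values for 18 results, 64 stayed within 1.5 times the value reported. Peak midpoints, windows widened by 50 kb, merged peaks and removal of the narrowest width moved no count per window by more. Keeping only peaks at or above the median width of their list left 8 RUNX1 peaks at 9p21, 0 RUNX1 peaks at CDKN1A, and 2 H3K4me3, 4 RUNX1 and 1 SMA4 peaks at CDKN1B. The share of spans at least as long as the longest at 9p21 was 19.8% without the RUNX1 list and 13.9% with the width filter, beside 8.35%. In both cases the longest span became another one, ending at the MTAP start (223.0 and 222.0 kb). H3K4me3 peaks at SMA4 numbered 5 within 1 kb and 0 at the H3K4me3 midpoint, beside 1. RUNX1 peaks at SMA4 numbered 0 at the RUNX1 midpoint, beside 3. SMA4 peaks at H3K4me3 numbered 2 within 1 kb, beside 1. With TGTGGT alone, 0 member promoters had a match, beside 1. The width filter removes peaks by construction, and the cause of the other moves was not tested. No paired analysis was possible because each antibody had 1 library and no test was made. The lists give no depth, so an absent peak does not show an absent target.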

Other observations

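Chromosome 9 was also counted in steps of 1 Mb from 16 to 32 Mb. The step from 21 to 22 Mb had the most RUNX1 peaks (23) and the most SMA4 peaks (3). It holds MTAP and CDKN2A, but most of these RUNX1 peaks lay before 21.5 Mb, where the 9p21 window begins. So did the SMA4 peaks at 21001728 and 21081650. The step from 19 to 20 Mb had the most H3K4me3 peaks (8), beside 4 from 21 to 22 Mb. RUNX1 had 9 peaks from 22 to 23 Mb and 0 in each step from 23 to 26 Mb, then 5 and 7 in the following steps and 0 again in each step from 28 to 31 Mb. Chromosome 9 as a whole had 10.5 RUNX1, 3.48 H3K4me3 and 0.292 SMA4 peaks per Mb.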
